A study of Mus musculus with 2 samples.

Results

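The mitochondrial genome is a small circle of DNA that each mitochondrion keeps apart from the nucleus. It codes for 13 proteins of the respiratory chain and the ATP synthase, for the 2 rRNAs of the mitochondrial ribosome and for 22 tRNAs. Both strands are transcribed as long precursors that are cut next to the tRNAs. The rRNAs and most mRNAs then carry poly-A tails, while the tRNAs do not. Spermatogenesis, the making of sperm, remodels mitochondria in number, shape and position, while Leydig cells, the androgen-producing cells between the tubules, start steroid synthesis inside them.

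The genes described here are all gene columns whose name starts with mt-. There were 37 of them among 43026 gene columns in either table, 37 of 40184 in the table of the young library and 36 of 39087 in that of the aged library. The names were not chosen by measured values. They comprise 13 protein genes, 2 rRNA genes and 22 tRNA genes, which is the whole set of the mitochondrial genome. One column, mt-Nd4l, is not among the columns of the aged table, and the young table holds 1 count for it.

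The libraries were made from testicular cells of mice aged 2 months (young, 1 library) and 24 months (aged, 1 library). The labels give no strain and no number of animals per library, and mice of both ages were anaesthetised with Avertin. The testes were freed of their capsule, minced, digested with accutase and strained, and single cells were captured on the BD Rhapsody microwell system, whose beads bind poly-adenylated RNA. The young library gave 2771 cells with 53413783 counts (median 16582 per cell) and the aged library gave 6823 cells with 66390904 counts (median 7488). No cell of the young table has fewer than 3215 counts, while 2643 aged cells (38.7%) do, and the lowest aged cell has 186. The tables share 35 cell barcodes. Each age is 1 library, so no difference could be set against a spread between animals and nothing was tested. Every interval below is an exact 95% interval (Clopper-Pearson for a share, conditional binomial for a ratio) that covers counting error only.

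Cells with at least 500 counts and 200 genes outside the mt- genes were kept with no limit on the mt- share, which left 2736 young and 6060 aged cells after removal of called doublets. They were clustered without the mt- genes and named from marker lists. The labels call the cells stroma cells, whereas 1364 young (49.9%) and 3650 aged (60.2%) cells fell in clusters named for germ cells and 1316 and 961 in clusters named for somatic cells. A further 56 young (2.05%) and 1449 aged cells (23.9%) were left unnamed. Spermatocyte-like cells, which are in meiosis, lay in 4 clusters, here called stages 1 to 4, from earlier to later by their meiotic markers. Round spermatid-like cells lay in 3 such stages and elongating spermatid-like cells in 2, ordered by Tnp1 and Prm1, which code for proteins that replace histones. Levels are given as CPM, counts per 1000000 counts of a stage or class in a library, and where values come in pairs the young one stands first. The elongating spermatid markers summed to 138698 and 126156 CPM in elongating spermatid-like cells and the Leydig markers to 42623 and 35944 CPM in Leydig-like cells.

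A group of mt- genes is near absent although its neighbours on the same genome are abundant, and these genes have identical or nearly identical copies in the nuclear annotation. The sequences below show the ends of these genes, since poly-A capture favours the 3′ end of a transcript. They are printed 5′ to 3′ from GENCODE M21 transcripts (GRCm38), and capitals mark bases that differ within a pair. The last 60 bases shared by mt-Atp6 (chrM:8545-8604, plus strand) and Gm10925 (chr1:24613974-24614033, minus strand) do not differ at any base. Nor do those of mt-Co3 (chrM:9330-9389) and Gm28437 (chr1:24613189-24613248), or those of mt-Co2 (chrM:7637-7696) and Gm13341 (chr2:22587291-22587350).
mt-Atp6: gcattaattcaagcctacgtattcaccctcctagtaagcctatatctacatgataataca
Gm10925: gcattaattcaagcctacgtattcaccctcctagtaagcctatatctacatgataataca
mt-Co3: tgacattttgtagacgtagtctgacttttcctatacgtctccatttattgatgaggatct
Gm28437: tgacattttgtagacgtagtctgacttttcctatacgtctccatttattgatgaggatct
mt-Co2: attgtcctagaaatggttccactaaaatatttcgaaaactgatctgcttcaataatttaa
Gm13341: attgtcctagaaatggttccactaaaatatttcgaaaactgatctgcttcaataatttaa

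Where a pair differs, single bases tell the copies apart. The first 60 bases of mt-Nd3 (chrM:9459-9518) and Gm28438 (chr1:24613060-24613119, minus strand) differ by T3C, counted from the first base of mt-Nd3. The last 60 bases of mt-Co1 (chrM:6813-6872) and Gm13340 (chr2:22588103-22588162, minus strand) differ by T1506C, counted from the first base of mt-Co1.
mt-Nd3: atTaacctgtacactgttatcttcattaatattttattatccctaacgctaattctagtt
Gm28438: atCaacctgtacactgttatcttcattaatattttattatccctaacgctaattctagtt
mt-Co1: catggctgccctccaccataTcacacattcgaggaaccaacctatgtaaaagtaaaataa
Gm13340: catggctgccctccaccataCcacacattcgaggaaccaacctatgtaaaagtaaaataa

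The other sequences that matter below are a tRNA with many counts, mt-Td (chrM:6942-7011, plus strand), its neighbour mt-Ts1 on the opposite strand (chrM:6870-6938), and mt-Nd4l (chrM:9877-10173), the gene with no aged column. In mt-Nd4l the capitals mark the last 7 bases, which are also the first 7 of mt-Nd4. The 43 bases shared by mt-Atp8 and mt-Atp6 (chrM:7927-7969) are shown because a read within them belongs to an abundant gene and a near absent one alike.
mt-Td: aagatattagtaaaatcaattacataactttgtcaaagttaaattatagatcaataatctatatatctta
mt-Ts1: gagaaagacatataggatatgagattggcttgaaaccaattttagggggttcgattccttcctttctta
mt-Nd4l: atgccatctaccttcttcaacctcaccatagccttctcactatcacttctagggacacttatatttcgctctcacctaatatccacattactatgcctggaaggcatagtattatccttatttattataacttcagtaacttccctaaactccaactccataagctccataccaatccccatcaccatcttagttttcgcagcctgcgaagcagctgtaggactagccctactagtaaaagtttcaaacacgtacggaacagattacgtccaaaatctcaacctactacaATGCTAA
mt-Atp8/mt-Atp6: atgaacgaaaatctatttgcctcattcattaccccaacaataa

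Over the whole tables the mt- genes held 710594 young counts (1.33% of all counts) and 874919 aged counts (1.32%). Subunits of complex I, the NADH dehydrogenase, made up 54.9% of the young and 53.8% of the aged mt- counts. Cytochrome b of complex III (mt-Cytb) made up 23.7% and 22.9%, and the subunits of complex IV, cytochrome c oxidase, 11% and 13.2%. Subunits of complex V, the ATP synthase, were at 0.50% and 0.422%, the rRNAs at 8.09% and 8.24% and the tRNAs at 1.85% and 1.5%. Columns of 1 genome thus differed widely in counts, with the order of the roles the same in both libraries. This order holds for the mt- columns only, since counts in nuclear copies of mt- genes are not included. The complex V columns had 3551 young and 3691 aged counts and the tRNA columns 13170 and 13144. Gm10925, a nuclear copy of the complex V gene mt-Atp6, alone had 10738 and 13260.

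Among the complex I genes, mt-Nd1 had 163402 young and 197061 aged counts, mt-Nd4 108979 and 139390, mt-Nd2 77283 and 86553, and mt-Nd5 39274 and 46277. mt-Cytb had 168287 and 199974 counts and mt-Co1, the catalytic subunit of complex IV, 78162 and 115704. These 6 genes were the abundant protein genes in each library. mt-Nd6, the only protein gene read from the other strand (chrM:13552-14070, minus strand), had 740 and 736 counts. Per kb of gene, mt-Nd1 had 170744 young and 205915 aged counts, mt-Cytb 147104 and 174802, mt-Nd4 79085 and 101154, and mt-Nd6 1426 and 1418. On that scale mt-Nd6 lay far below the abundant complex I genes of the plus strand. Whether these transcripts are captured alike by their poly-A tails was not tested.

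The rRNA of the small mitochondrial subunit, mt-Rnr1, had 26456 young and 39447 aged counts (27703 and 41306 per kb), and that of the large subunit, mt-Rnr2, had 31001 and 32634 (19596 and 20628 per kb). One tRNA stood apart from the other 21. mt-Td, the aspartate tRNA, had 11591 young and 11565 aged counts, while the other 21 tRNA columns together had 1579 in each library. Next were mt-Ts1 (478 and 550), mt-Tg (370 and 314), mt-Tm (241 and 231) and mt-Tt (124 and 193). Per kb mt-Td was at 165586 and 165214 counts, near the level of mt-Nd1 in the young library. mt-Td follows mt-Co1 on the same strand, with mt-Ts1 between them on the opposite strand. The sources do not say whether counting used the strand. A longer transcript that runs from mt-Co1 across mt-Td lies on the strand of mt-Td, so counts alone do not tell it from mature tRNA.

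Of the remaining protein genes, mt-Atp8 had 3518 young and 3662 aged counts (17245 and 17951 per kb). mt-Nd3 had 254 and 258, mt-Atp6 33 and 29, mt-Co2 30 and 47, mt-Co3 4 and 3, and mt-Nd4l 1 and 0. These 5 low genes summed to 322 young and 337 aged counts. Of the words of 50 bases in their last 300 bases, 98.8% to 100% also occur in an annotated nuclear transcript. The nuclear copies held the counts. Gm10925 (chr1:24613974-24614651, minus strand), identical to 678 bases of mt-Atp6, had 10738 young and 13260 aged counts. Gm28437 (chr1:24613189-24613971, minus strand), identical to 783 bases of mt-Co3, had 9099 and 10037. The 2 copies of mt-Co2, Gm28661 on chromosome 1 (identical over 681 bases) and Gm13341 on chromosome 2 (identity 95.9%), had 474 and 614, and 5080 and 6047. Gm28438, which copies mt-Nd3, had 1406 and 1997 counts. As a share of each pair, the nuclear model held 99.7% and 99.8% of the mt-Atp6 pair and 84.7% and 88.6% of the mt-Nd3 pair.

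All 9 models named here are annotated as unprocessed pseudogenes. The 7 of them that lie side by side on chromosome 1 (chr1:24611535-24616197) had 22119 young and 26275 aged counts, which is 3.11 and 3.0 for every 100 mt- counts. With Gm13340 and Gm13341 of chromosome 2 the sums were 30934 and 36972, or 4.35 and 4.23 per 100. Identity of sequence did not go with a loss of counts in every pair. The last 300 bases of mt-Co1 are found whole in nuclear models, yet mt-Co1 had 78162 and 115704 counts, against 3735 and 4650 in Gm13340 and 321 and 250 in Gm29216, which differs from it by A1066T. Gm28439 is identical to 876 bases of mt-Nd4 and had 61 and 97 counts, but the last 300 bases of mt-Nd4 share no 50-base word with a nuclear transcript. For mt-Nd4l, both the gene (1 and 0) and its copy Gm10222 (20 and 20) were low. Reads of such a pair cannot be told apart by sequence where it is identical, so the counts of these 5 genes and their copies are uncertain and no ratio is printed for any of them. The same limit holds for reads in the last 300 bases of mt-Co1, whose parts and ratios are given below and carry it.

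**Figure D1:**
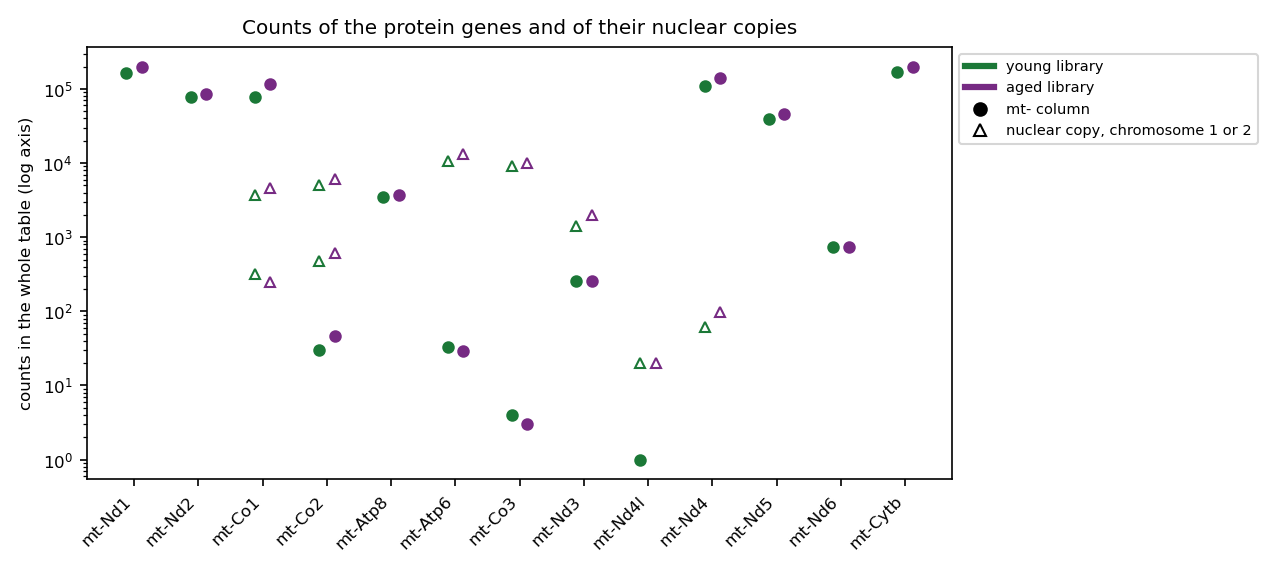
Counts of each mt- protein gene (filled points) and of its nuclear copies on chromosomes 1 and 2 (open triangles) in the whole tables, on a log axis, with the young library in green and the aged library in purple. mt-Atp6, mt-Co2, mt-Co3 and mt-Nd3 lie under their copies in both libraries, while mt-Co1 and mt-Nd4 lie above theirs.

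The mt- share of a cell type is the sum of its mt- counts over the sum of all its counts. It was highest in somatic cells and spermatogonia and lower along the germ cell stages, with little difference between the libraries at most stages. Spermatogonia-like cells, which precede meiosis, were found only among the aged cells (79 cells), with a share of 5.00% (95% interval 4.91 to 5.09) and a median per cell of 4.62%. They had a median of 123 mt- counts at a median total of 2253, against 113 at 17025.5 in aged spermatocyte-like cells. The higher share thus went with fewer other counts per cell. No young cell has under 3215 counts, so a lack of young spermatogonia and that limit cannot be told apart. In spermatocyte stage 1 the share was 1.05% over 41 young cells and 1.10% over 728 aged cells. In stage 2 it was 0.683% and 0.650%, in stage 3 0.524% and 0.478%, and in stage 4 0.477% and 0.487%. The share in stage 4 was 2.20-fold lower than in stage 1 in the young library (2.15 to 2.24) and 2.26-fold lower in the aged one (2.23 to 2.28).

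Round spermatid-like cells continued this order. Stage 1 was at 0.311% and 0.296%, stage 2 at 0.110% and 0.0950%, and stage 3, where Tnp1 and Prm1 transcripts begin, at 0.0694% and 0.0510%. From spermatocyte stage 1 to round spermatid stage 3 the share was 15.1-fold lower among young (14.4 to 15.8) and 21.5-fold lower among aged cells (20.6 to 22.5). The median number of mt- counts per cell went from 284 to 11 between these stages among young cells, at median totals of 26811 and 26180.5 counts. Among aged cells it went from 156 to 4, at median totals of 14337 and 16146. The difference thus also appeared in counts per cell at like totals. Unnamed cluster 13, whose markers lie between spermatocytes and round spermatids, was at 0.499% (54 cells) and 0.460% (143 cells).

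In elongating spermatid-like cells the mean and the median went apart. Stage 1 (37 young, 77 aged cells) had a summed share of 0.188% and 0.0352% and medians of 0.0481% and 0.0165%. Stage 2 (105 and 270 cells) had 0.347% and 0.481% and medians of 0.133% and 0.0380%, with single cells up to 2.81% and 8.86%. In aged stages 1 and 2 and in young stage 1 the summed share also lay above the upper quartile of the cells (0.0262%, 0.128% and 0.108%), while in young stage 2 it lay below it (0.451%). Of the 199 aged cells with no mt- count, 84 were elongating spermatid-like and 72 lay in unnamed cluster 11, while the young library had 1 such cell.

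Leydig genes (Cyp17a1, Klk1b21, Hsd3b6, Insl3, Cyp11a1 and Star) give a scale for RNA of other cells at such low values. In round spermatid stage 3 they stood at 0.530% (young) and 0.190% (aged) of their level in Leydig-like cells. Leydig cell RNA at that level would bring an mt- share of 0.0313% and 0.0113%, against measured shares of 0.0694% and 0.0510%. In elongating stage 2 the same value was 0.0250% and 0.170%, against 0.347% and 0.481%. How much of the remainder is RNA of other cells was not tested.

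**Figure D2:**
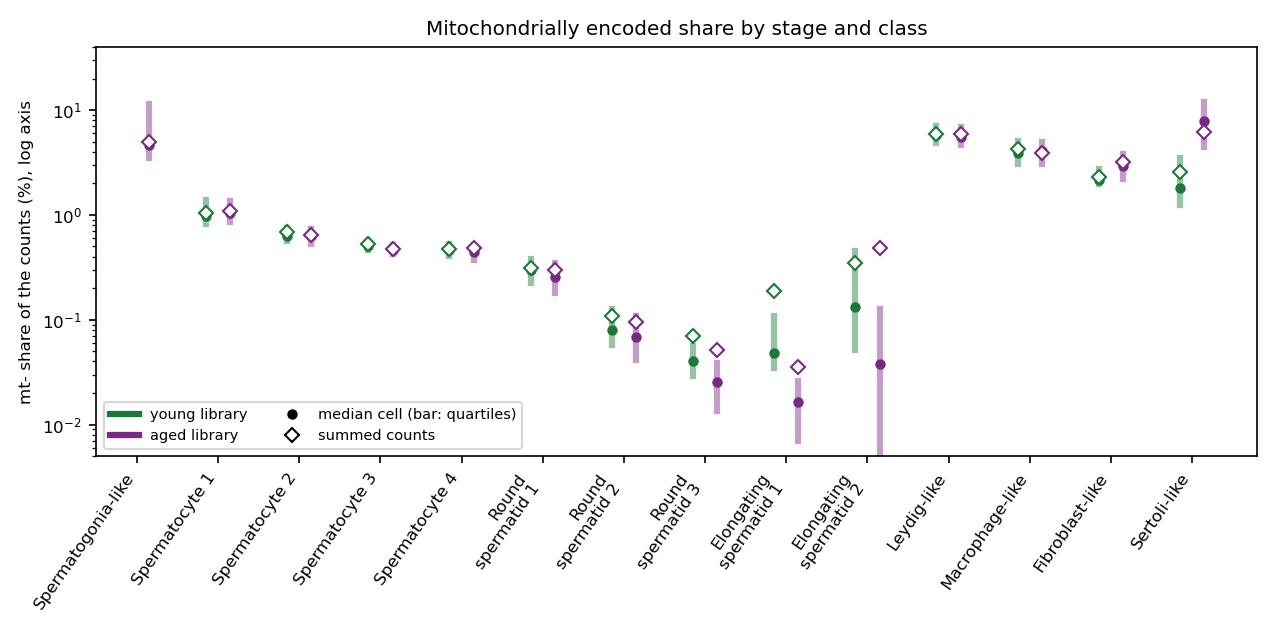
Share of mt- counts (percent, log axis) in each germ cell cluster and somatic class, with filled points for the median cell, bars for the quartiles and open diamonds for the summed counts, in green for the young and purple for the aged library. The share is between 0.477% and 1.10% in spermatocytes and between 0.0510% and 0.311% in round spermatids, and the lower quartile of aged elongating spermatid stage 2 is 0 and is clipped by the axis.

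Among somatic cells, Leydig-like cells had the highest class share among young cells, 5.91% (1090 cells, median 5.76%), and stood at 5.92% among aged cells (588 cells, median 5.5%). They lay mostly in different clusters, cluster 0 with 1058 young and 80 aged cells (5.88% and 6.0%) and cluster 6 with 32 and 508 (6.93% and 5.91%). Macrophage-like cells were at 4.28% (173 cells) and 3.88% (151 cells). Of these, the cluster found in both libraries (83 and 132 cells) was at 4.53% and 3.97%, and it also carried these Leydig genes at 51.5% and 43.3% of their Leydig-like level. The other large macrophage-like cluster held 89 young and 0 aged cells and was at 4.02%. Fibroblast-like cells, the connective tissue cells of the testis, were at 2.31% (17 cells) and 3.20% (127 cells).

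Sertoli-like cells, which nurse the germ cells, were at 2.55% (36 cells) and 6.20% (95 cells). Elongating spermatid markers in the same cells summed to 118739 (young) and 100682 CPM (aged), against 2568 and 5516 CPM for the Sertoli markers themselves. The part of this spermatid RNA in the mt- share was not tested. Fibroblast-like and Sertoli-like cells had fewer than 50 young cells and are described only.

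The make-up of the mt- counts differed between germ cell stages more than between the libraries, and mt-Cytb and mt-Nd1 moved apart during meiosis. In spermatocyte stage 1 mt-Cytb made up 27.1% of the young and 28.3% of the aged mt- counts, in stage 2 20.9% and 20.2%, in stage 3 11.4% and 9.48%, and in stage 4 9.63% and 8.23%. mt-Nd1 went the other way, with 20.7% and 19.2%, 24.0% and 23.2%, 33.3% and 35.1%, and 33.5% and 35.4%. The ratio of mt-Cytb to mt-Nd1 counts was thus 1.31 and 1.48 in stage 1 and 0.288 and 0.232 in stage 4. In the unnamed cluster 13 it was 0.646 and 0.613, in round spermatid stage 1 1.01 and 0.925, in Leydig-like cells 1.27 and 1.25, and in aged spermatogonia-like cells 1.22. The low ratio was found in spermatocyte stages 3 and 4 of both libraries.

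In levels, mt-Cytb was at 2840 CPM in spermatocyte stage 1 and 459 CPM in stage 4 of the young library, 6.18-fold lower (5.92 to 6.46). Aged cells had 3114 and 401 CPM in these stages, 7.77-fold lower (7.53 to 8.01). Over the same step mt-Nd1 was 1.36-fold lower among young (1.3 to 1.41) and 1.22-fold lower among aged cells (1.2 to 1.24). The other complex I genes lay between them. mt-Nd4 was 2.90-fold and 3.25-fold lower, mt-Nd5 2.81-fold and 3.54-fold lower, and mt-Nd2 1.84-fold and 1.75-fold lower. mt-Co1 was 1.60-fold and 1.76-fold lower.

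From spermatocyte stage 4 to round spermatid stage 1 the order turned. mt-Cytb was 1.25-fold higher among young (1.2 to 1.29) and 1.24-fold higher among aged cells (1.18 to 1.3), and mt-Nd4 was 1.17-fold and 1.16-fold higher. mt-Nd1 was 2.81-fold lower (2.73 to 2.90) and 3.21-fold lower (3.10 to 3.33), mt-Nd2 2.59-fold and 2.62-fold lower, and mt-Co1 2.23-fold and 2.37-fold lower. mt-Nd4 made up 24.6% of the young and 23.3% of the aged mt- counts in round spermatid stage 1, against 13.7% and 12.2% in spermatocyte stage 4. The direction of each of these 5 genes was the same in both libraries, whose cells were clustered together.

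In the next step the protein genes and the rRNAs parted. From round spermatid stage 1 to stage 2 the summed protein genes went from 2592 to 607 CPM (young) and from 2433 to 502 CPM (aged), 4.27-fold (4.10 to 4.44) and 4.85-fold lower (4.64 to 5.06). Young rRNA went from 418 to 442 CPM, with a ratio of 1.06 (1.0 to 1.12), and aged rRNA from 447 to 419 CPM, with a ratio of 0.937 (0.884 to 0.993). The rRNAs accordingly made up 13.4% and 15.1% of the mt- counts in stage 1 and 40.3% and 44.0% in stage 2. From stage 2 to stage 3 it was the rRNAs that were lower, 3.76-fold among young (3.36 to 4.22) and 3.99-fold among aged cells (3.58 to 4.46), while the protein genes were 1.11-fold and 1.27-fold lower. Both rRNAs followed this order. mt-Rnr2 was at 235, 269 and 75.5 CPM in the 3 young round spermatid clusters and at 250, 261 and 62.5 CPM in the aged ones, and mt-Rnr1 at 183, 174 and 42.0 CPM and at 197, 157 and 42.5 CPM.

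**Figure D3:**
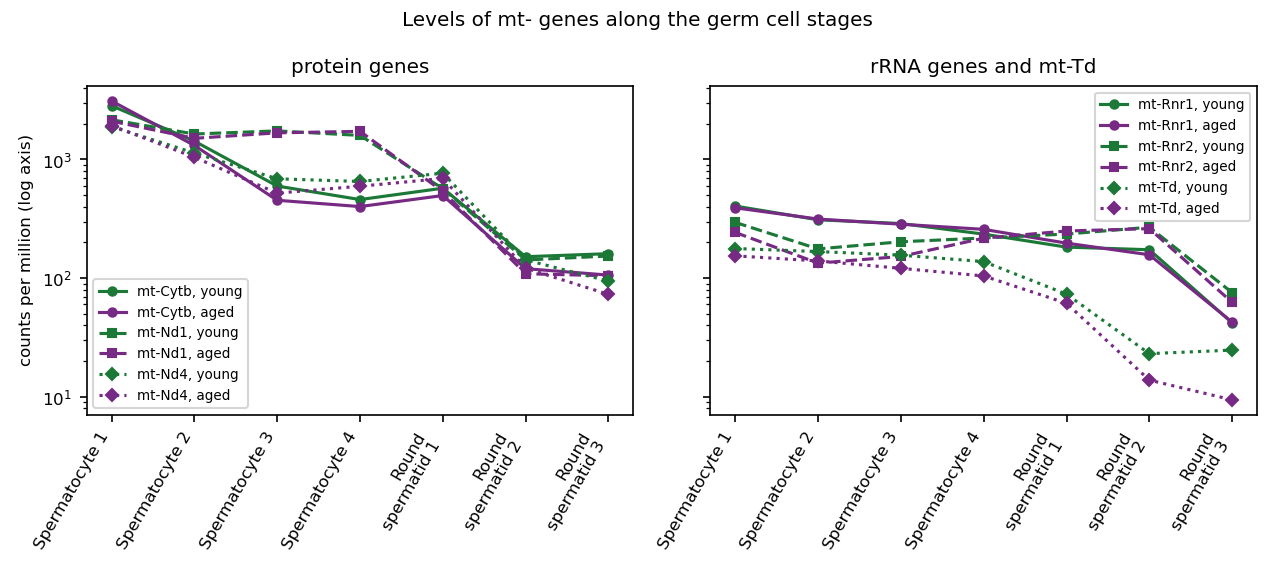
Levels in CPM (log axis) from spermatocyte stage 1 to round spermatid stage 3 in the young (green) and aged (purple) library. In one panel mt-Cytb is lower and mt-Nd1 nearly level up to spermatocyte stage 4, and in the other the rRNAs stay at 418 to 447 CPM in round spermatid stages 1 and 2 while the protein genes go from 2592 to 607 CPM in the young library.

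Somatic classes differed in rRNA and in the parts of the protein genes. The rRNAs made up 6.69% of the young and 6.45% of the aged mt- counts in Leydig-like cells, 12.3% and 20.9% in macrophage-like cells, 15.6% and 20.7% in fibroblast-like cells, and 9.85% and 8.9% in Sertoli-like cells. Complex I genes made up 53.9% and 53.1% in Leydig-like, 55% and 46.3% in macrophage-like, 46.6% and 42.6% in fibroblast-like and 55.4% and 58.8% in Sertoli-like cells. The ratio of mt-Cytb to mt-Nd1 was lowest in Sertoli-like cells, at 0.788 and 0.598, and highest in fibroblast-like cells, at 1.46 and 1.52. mt-Rnr2 was the larger part of it in macrophage-like cells, with 8.72% and 14.1%, and in fibroblast-like cells, with 9.75% and 14.8%. In Leydig-like cells mt-Rnr1 and mt-Rnr2 were closer, at 3.15% and 3.54% among young and 3.30% and 3.15% among aged cells. mt-Td made up 1.33% and 0.973% in Leydig-like cells and 2.89% and 2.14% in spermatocyte stage 4. Between the libraries, the part of mt-Td was lower in the aged one in 14 of the 15 clusters with at least 15 cells of each, all but elongating stage 1. The part of mt-Nd2 was lower in 13 of these 15 and that of mt-Nd4 in 12, while those of mt-Nd5 and mt-Rnr1 were each higher in 10. All parts are of the same mt- total, so a gene with a higher part lowers the parts of others. The part of mt-Co1 was higher in 12 of 15, all but both elongating stages and the macrophage-like cluster of both libraries. Reads of the end of mt-Co1 can also match nuclear models, and their part in this was not tested.

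**Figure D4:**
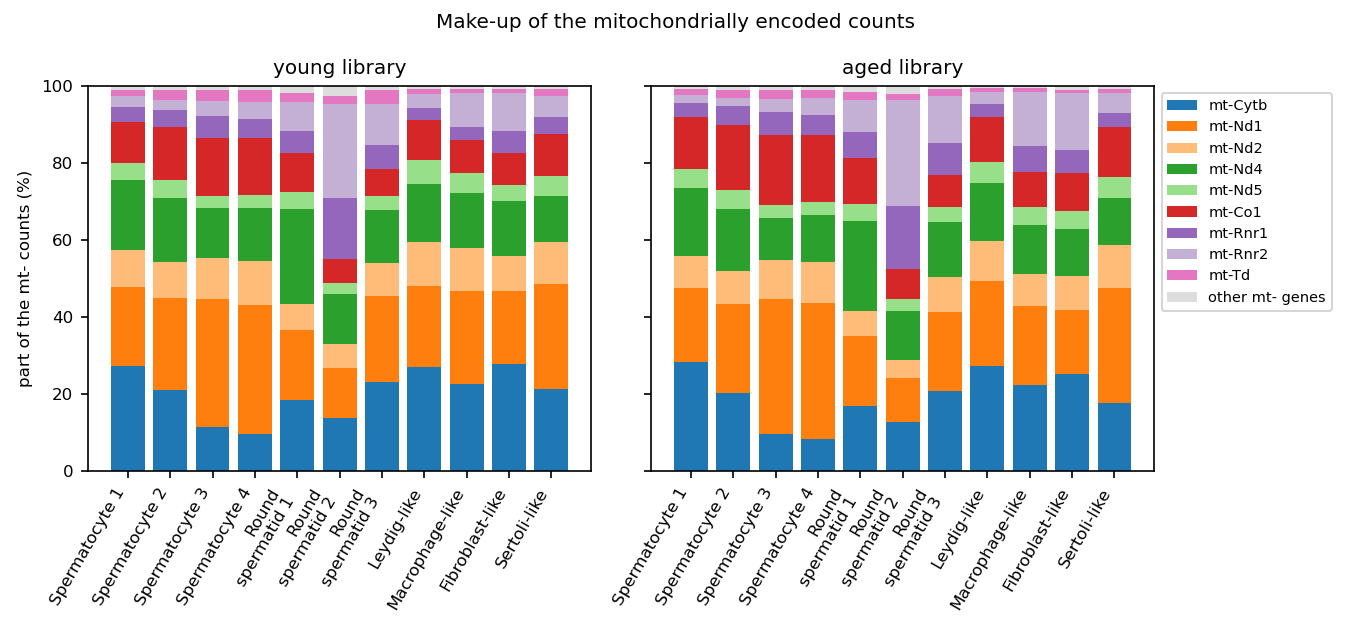
Part of the mt- counts (percent) held by each abundant mt- gene in the germ cell clusters and somatic classes of the young and the aged library, with all other mt- genes in light grey. mt-Nd1 makes up 33.3% to 35.4% in spermatocyte stages 3 and 4, and the rRNAs make up 40.3% and 44.0% in round spermatid stage 2.

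The aged library held a large set of cells with over 25% mt- counts, and nearly all of them were shallow. There were 875 such cells among 6823 in the table (12.8%, 12 to 13.6) and 1 among 2771 young cells (0.0361%, up to 0.201). The 875 cells had a median total of 717 counts, against 10933 in the other aged cells, and none had more than 2366. Their median was 231 mt- counts and 496 other counts, against 92 and 10853 in the rest. They therefore had more mt- counts per cell than the mixed rest, as well as fewer others. For scale, the median was 273.5 mt- counts in aged Leydig-like and 153 in aged Sertoli-like cells. The 875 cells held 24.2% of all aged mt- counts. Among the 4180 aged cells with at least 3215 counts, the lowest total in the young table, 0 were over 25% (upper limit 0.0882%) and the highest share was 15.4%. Among the 2643 aged cells below that total it was 33.1%. The lack of shallow cells in the young table and the age of the mice cannot be told apart here.

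Of the 875 cells, 442 failed the filter of 500 counts and 200 genes outside the mt- genes and 433 passed (7.02% of 6169 passing cells, 6.39 to 7.69). After doublet removal 432 remained. Of these, 401 (92.8%) lay in unnamed cluster 2, 15 were Leydig-like, 8 spermatocyte-like in stages 1, 2 and 4, 4 Sertoli-like and 3 spermatogonia-like, with 1 in cluster 13. The single young cell was Sertoli-like, with 5399 counts and a share of 30.9%. The limit of 25% runs through a continuous range, with 91 aged cells between 24% and 25% and 101 between 25% and 26%.

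Unnamed cluster 2 held 912 aged and 0 young cells, with a median of 698.5 counts and 573 genes outside the mt- genes. The quartiles of the mt- share lay at 20.4% and 28.3%, around a median of 24.2%. Counts were found for 31 of 32 spermatocyte markers, with a sum of 12428 CPM, against 10366 CPM in aged spermatocyte-like cells. Counts were found for 9 of 10 Sertoli markers, with a sum of 450 CPM, against 5516 CPM in aged Sertoli-like and 27.0 CPM in aged spermatocyte-like cells. Leydig genes stood at 0.353% of their Leydig-like level. Sertoli and spermatocyte markers scored too closely to name it. Of its 10 leading genes 5 were nuclear copies of mt- genes, Gm10925, Gm13341, Gm13340, Gm28438 and Gm28437, so that the clustering met mt- sequence through them although the mt- columns were left out. The 9 copies of chromosomes 1 and 2 together stood at 3.85 per 100 mt- counts in unnamed cluster 2 and at 4.31 in all kept aged cells. The part of mt-Cytb was 24.2% and of mt-Nd1 19.9%, a ratio of 1.22. Among aged cells that ratio was 1.22 in spermatogonia-like, 1.25 in Leydig-like, 1.19 in elongating stage 1, 1.10 in round spermatid stage 2, 1.09 in macrophage-like, 1.48 in spermatocyte stage 1, 0.598 in Sertoli-like and 0.232 in spermatocyte stage 4 cells, so it does not single out 1 class. Over all 875 cells mt-Cytb made up 25.5%, against 22% in the other aged cells, mt-Nd1 19.6% against 23.5%, mt-Nd4 17.5% against 15.4%, and mt-Td 0.866% against 1.47%.

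In Leydig-like cells and early spermatocytes deeper cells had lower shares, which was not so in every class. With Leydig-like cells split at the quartiles of their counts outside the mt- genes, the median share went from 7.43% in the shallowest to 5.95%, 5.43% and 4.91% among young cells. It went from 7.0% to 5.8%, 5.07% and 4.94% among aged cells. These cells share a library and the count outside the mt- genes is part of both measures, so the values describe the tables only. In aged spermatocyte stage 1 the median share went from 1.56% to 0.849% in the same order. In macrophage-like cells the medians in this order were 3.89%, 3.20%, 4.18% and 4.21% among young cells. Among aged cells they were 3.89%, 3.68%, 4.69% and 4.08%. These values had no steady order with depth.

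**Figure D5:**
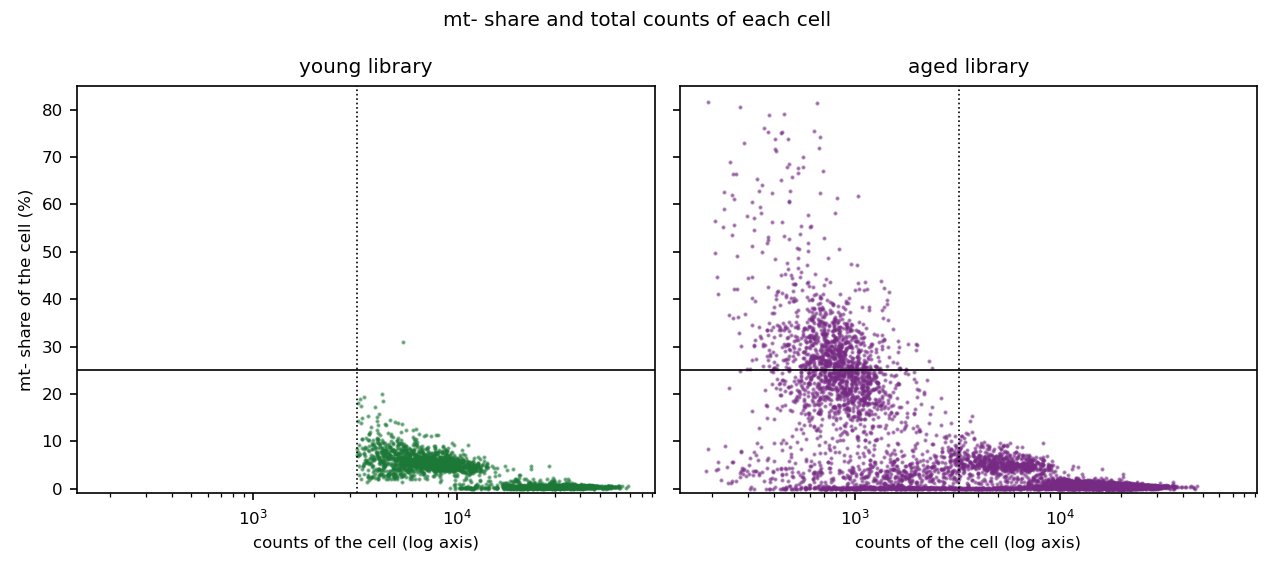
Share of mt- counts (percent) against the total counts of each cell (log axis) in the young and the aged table, 1 point per cell. Over 25% there is 1 young cell, at 5399 counts, and there are 875 aged cells, none above 2366 counts.

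The aged and young libraries were compared in the 5 classes with at least 50 cells in each. In Leydig-like cells the aged over young ratio of the mt- share was 1.0 (0.996 to 1.01), an interval that includes equality, and per-cell medians gave 0.954. Spermatocyte-like cells had a ratio of 1.26 (1.25 to 1.27). The class was made up differently, with 411 of 660 young cells in stage 4 and 728 of 2306 aged cells in stage 1. Within its 4 stages the ratios were 1.05, 0.951, 0.912 and 1.02, with a geometric mean of 0.982, so that the class value turned direction once stages were weighted alike. Round spermatid-like cells had a ratio of 0.789 (0.776 to 0.802), with 0.952, 0.867 and 0.736 in stages 1 to 3. It was 1.01 when cells were clustered again with called doublets kept, where the class held 303 young and 605 aged cells in place of 562 and 918.

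Elongating spermatid-like cells had a ratio of 0.921 (0.892 to 0.952), which joins 0.187 in stage 1 and 1.39 in stage 2. That class value moved between 0.270 and 1.87 over the alternatives and has no stable direction. Macrophage-like cells had a ratio of 0.905 (0.891 to 0.920), 0.875 in the cluster found in both libraries and 1.04 from per-cell medians. Their ratio was 1.01 when cells with at least 2000 counts were each thinned to 2000, which kept 96 of 151 aged cells. Leydig genes in macrophage-like cells stood at 27.6% (young) and 41.1% (aged) of their Leydig-like level. Leydig cell RNA at that level would bring an mt- share of 1.63% and 2.44%, against measured shares of 4.28% and 3.88%. Its part in the macrophage-like ratio was not tested. Over the 15 clusters with at least 15 cells of each library the aged share was higher in 6 and lower in 9. These ratios exceeded counting error in 4 of the 5 classes, but their size against the spread between animals cannot be known from 1 library per age.

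Single mt- genes were counted by size alone, as at least 1.5-fold apart in CPM among genes with at least 50 counts over both libraries. mt-Nd3, whose counts are uncertain, is among the measured genes of Leydig-like and spermatocyte-like cells and passed the limit in neither. In Leydig-like cells 0 of 15 measured mt- genes were higher and 2 lower in the aged library, against 6.52% of all genes higher and 9.21% lower. The 2 were the low tRNA columns mt-Tm (88 and 20 counts, ratio 0.651, 0.379 to 1.07) and mt-Tt (56 and 9 counts, ratio 0.460, 0.200 to 0.937). The abundant protein genes ran from 0.904 for mt-Nd5 to 1.10 for mt-Co1, with mt-Cytb at 1.02 and mt-Nd1 at 1.03. mt-Td was further off, at 0.732 (0.692 to 0.773), without passing the 1.5-fold limit. The median log2 ratio was -0.14 over the mt- genes and -0.02 over all genes.

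In spermatocyte-like cells 3 of 17 mt- genes were higher and 1 lower, against 16.3% and 7.24% of all genes. mt-Cytb was at 743 (young) and 1354 CPM (aged), a ratio of 1.82 (1.79 to 1.85). mt-Nd5 had a ratio of 1.51 (1.46 to 1.56) and mt-Tt 2.15 (1.32 to 3.66), while mt-Tg had 0.580 (0.439 to 0.766). mt-Cytb is also the gene that differed most between spermatocyte stages 1 and 4, which the libraries hold in different proportions. Within stage 1 its levels were 2840 and 3114 CPM and within stage 4 459 and 401 CPM. mt-Nd1, which differed less between these stages, had a ratio of 1.06.

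In round spermatid-like cells 0 of 13 mt- genes were higher and 2 lower, mt-Td (ratio 0.641, 0.572 to 0.717) and mt-Tg (0.621, 0.480 to 0.800), against 3.79% and 2.92% of all genes. The rRNAs were closest to equality, with mt-Rnr1 at 0.936 and mt-Rnr2 at 0.955, and the protein genes ran from 0.697 for mt-Atp8 to 0.920 for mt-Co1. The libraries hold the round spermatid stages in different proportions, with 305 of 562 young and 387 of 918 aged cells in stage 1. Within stage 1 mt-Co1 was at 315 and 356 CPM and mt-Nd1 at 567 and 538 CPM. In stage 3 mt-Co1 was at 48.5 and 42.8 CPM. The part of the stage mix in the class ratios was not tested. In elongating spermatid-like cells 0 of 10 were higher and 1 lower, mt-Td at 0.630 (0.474 to 0.833), against 7.89% and 2.34%. In macrophage-like cells 1 of 11 was higher and 1 lower, against 21% and 21.3% of all genes. mt-Rnr1 was at 1520 (young) and 2630 CPM (aged), a ratio of 1.73 (1.61 to 1.85), beside 1.46 for mt-Rnr2, and mt-Nd6 had 51 and 18 counts (0.653, 0.359 to 1.14). Spermatocyte markers in the same macrophage-like cells summed to 464 and 1662 CPM. Leydig genes stood there at 27.6% and 41.1% of their Leydig-like level. The part of either in these ratios was not tested. The median log2 ratios of the mt- genes and of all genes were 0.11 and 0.037 in spermatocyte-like, -0.45 and -0.0085 in round spermatid-like, -0.096 and 0.062 in elongating spermatid-like and -0.30 and 0.018 in macrophage-like cells.

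The respiratory complexes also need subunits coded in the nucleus, which are made in the cytosol and imported. Their summed level, over complexes I to V and cytochrome c, was 35052 (young) and 33913 CPM (aged) in Leydig-like cells. It was 24352 and 24832 CPM in spermatocyte stage 1, 17251 and 16284 CPM in stage 4, 15177 and 14092 CPM in round spermatid stage 1, and 10024 and 9817 CPM in stage 3. The nuclear genes were thus also lower along the germ cell stages, but by less than the mt- protein genes. Counts of mt- protein genes per nuclear subunit count were 1.55 and 1.62 in Leydig-like cells, 2.60 in aged spermatogonia-like cells, 0.393 and 0.410 in spermatocyte stage 1, 0.241 and 0.263 in stage 4, 0.171 and 0.173 in round spermatid stage 1, and 0.0547 and 0.0401 in stage 3. The value was 26.5 in unnamed cluster 2.

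Nuclear genes of the mitochondrial lists were held to the same size rule. In Leydig-like cells 0 of 130 measured list genes were higher and 2 lower, beside 6.52% and 9.21% of all genes. These were Cox7a1, a complex IV subunit best known from muscle, at 89.3 and 37.1 CPM (ratio 0.416, 0.335 to 0.512), and Spata18, which takes part in the repair and removal of damaged mitochondria, at 13.4 and 2.16 CPM (0.162, 0.0582 to 0.365). All 37 complex I subunits, 17 complex V subunits and 9 complex III subunits measured there lay within 1.5-fold, with Ndufa2 at 838 and 950 CPM and Uqcrq at 1086 and 1096 CPM. In round spermatid-like cells 0 of 122 were higher and 3 lower, beside 3.79% and 2.92% of all genes. The 3 were Ndufb11 (97 and 55 counts), Cox7b (44 and 14) and the somatic cytochrome c gene Cycs (45 and 24). The testis cytochrome c gene Cyct was at 76.9 and 72.2 CPM, and the testis complex IV gene Cox8c at 1122 and 943 CPM.

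In spermatocyte-like cells 13 of 130 list genes were higher and 3 lower, beside 16.3% and 7.24% of all genes. Of 16 measured genes for copying and transcription of mitochondrial DNA 4 were higher and 1 lower, with a median log2 ratio of 0.053 beside 0.037 over all genes. Ssbp1, which binds single-stranded mitochondrial DNA, was at 1.44 and 4.49 CPM (ratio 3.11, 2.1 to 4.7) and the nuclease gene Mgme1 at 1.30 and 3.38 CPM. Of 18 genes for processing and stability of mt- RNA 3 were higher and 0 lower, and of 13 for mitochondrial turnover and dynamics 2 and 0. Atp5g3, a subunit of the ATP synthase ring, was at 95.8 and 181 CPM (1.89, 1.80 to 1.98). These are values of the whole class, and the libraries hold the spermatocyte stages in different proportions. Stage 1 had 41 young and 728 aged cells and stage 4 had 411 and 725. The part of this stage mix in the spermatocyte ratios and counts of list genes was not tested. In elongating spermatid-like cells 8 of 87 were higher and 0 lower, beside 7.89% and 2.34% of all genes, so the higher share is near that of all genes. The most abundant list genes there were Tfam, which packs and transcribes mitochondrial DNA, at 1879 and 1693 CPM, and Spata18 at 1436 and 1363 CPM. Tfam was at 31 and 46.2 CPM in round spermatid-like cells and at 45.5 and 31.7 CPM in Leydig-like cells. In macrophage-like cells 14 of 103 were higher and 4 lower, beside 21% and 21.3% of all genes. The 2 furthest apart were the testis complex IV genes Cox7b2 (24.1 and 105 CPM) and Cox8c (77.9 and 304 CPM), beside the spermatocyte marker sums given above.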

How the data were processed

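Each deposited table holds whole-number counts with cells in rows and genes in columns, and the authors did not normalize them. Per the file headers, the aged table came from version 1.7.1 of the BD Rhapsody pipeline with STAR 2.5.2b, while the young table has no header. Per the submitters' processing notes, Cell Ranger 2.11 and the mm10 genome were used. The sources thus differ on the pipeline, and it is unclear if 1 count stands for 1 molecule. How cells were called and whether strand was used are not given in the sources used here. Genes without a column in one table count as 0 in it.

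Cells with 500 or more counts and 200 or more genes outside the mt- genes were kept (2771 young, 6169 aged). Scrublet in scanpy 1.11.5 called 35 young (1.26%) and 109 aged (1.77%) doublets, which were removed. After scaling of the counts outside the mt- genes to 10000 in each cell and a log transform, 2000 variable genes, 40 principal components and a graph of 15 neighbours were clustered with leidenalg 0.10.2 (resolution 1, seed 1), without batch correction. A cluster took the class with the highest mean marker z-score, if 3 or more markers were up, the mean was 0.5 or more and the next class lay 0.15 or more below. It stayed unnamed where another class led its 10 top genes, or where its median count was more than 3 times below its library median and none of its markers was among them. This naming rule was set after the clusters had been seen. As an alternative each cell was named by its own score, which put 515 young and 1494 aged cells no more than 0.1 from the naming limit.

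CPM are counts per 1000000 counts of a class in a library. Intervals used scipy 1.17.1, and log2 ratios of list medians had 0.5 added to each count. Sequences, coordinates and gene types came from GENCODE M21 (GRCm38). A nuclear model was taken as a copy if it shares a word of 31 bases with an mt- gene, which 23 models do, and the 9 named ones are summed. Alignments were local. Gm43951 of the fixed list shares none and was left out, and Prorp is not among the columns. All mt- genes are named, and of each nuclear list the 2 most abundant genes and the 2 furthest from equality per class, of which a part is given. Members and lists were chosen with earlier results of these data known. The count of genes past a fold was checked on simulated data. Alternatives covered the cell filter, doublets, clustering, class naming, depth, the set of mt- columns, the limit and the fold rule.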

Additional observations from a re-analysis of the deposited data

Results flagged for a closer look

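The aged over young ratio of the mt- share lay on opposite sides of 1 between classes. It was above 1 in spermatocyte-like (1.26), fibroblast-like (1.39) and Sertoli-like cells (2.44), and below 1 in round spermatid-like (0.789), elongating spermatid-like (0.921) and macrophage-like cells (0.905). These are ratios of summed class counts, and several of their directions changed with stage or processing. Within spermatocyte stages 1 to 4 the ratios were 1.05, 0.951, 0.912 and 1.02, and within elongating stages 1 and 2 they were 0.187 and 1.39. Per-cell medians gave 1.04 in macrophage-like cells. The ratio in round spermatid-like cells crossed 1 when called doublets were kept. With 1 library per age the difference between classes was not tested. Fibroblast-like cells numbered 17 and Sertoli-like cells 36 in the young library.

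Signal of mitochondrial sequence was also found in columns outside the mt- genes. The 7 nuclear models that lie side by side on chromosome 1 and copy mt- genes held 22119 young and 26275 aged counts, against 322 and 337 in the 5 low mt- protein genes. Whether these reads came from the nuclear or the mitochondrial copy cannot be told apart where the sequences are identical.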

How the results depend on the processing

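No paired analysis was possible because there is 1 library per age and the labels give no replicate numbers. Ratios below are aged over young for the mt- share. Thinning to 2000 counts leaves out cells under that total. It kept 96 of 151 aged macrophage-like, 282 of 347 aged elongating spermatid-like and 525 of 588 aged Leydig-like cells. Each of the 5 ratios crossed 1 or came from 1.0, and that of elongating spermatid-like cells lay past 1.5-fold in both directions. Leydig-like cells (1.0) gave 0.972 without cells over 25%, 0.938 with the lowest young total as minimum in both libraries, 0.954 from per-cell medians, 0.939 thinned to 2000 counts, 0.966 with doublets kept, 0.985 by the score of each cell and 0.933 as the geometric mean over clusters. Spermatocyte-like cells (1.26) gave under these 1.25, 1.22, 1.15, 1.31, a value within its interval with doublets kept, 1.39 and 0.982, and 1.28 without the rRNAs and 1.30 with nuclear models that share sequence left out of the clustering. Round spermatid-like cells (0.789) gave 0.761 with that minimum, 0.610 from medians, 0.817 thinned, 0.756 without the rRNAs, 1.01 with doublets kept (303 and 605 cells in the class after new clustering), 0.916 and 0.809 at resolutions 0.5 and 2, 0.831 with mt- genes in the clustering, 0.865 with the models left out, 0.839 by cell score and 0.847 as geometric mean. Elongating spermatid-like cells (0.921) gave 0.270 from medians, 1.06 thinned, 0.670 with doublets kept, 1.87 and 0.964 at those resolutions, 1.15 with mt- genes in the clustering and 0.510 as geometric mean. Macrophage-like cells (0.905) gave 1.04 from medians, 1.01 thinned, 0.817 without the rRNAs, 0.872 with doublets kept and 0.875 both in the shared cluster alone and as geometric mean, which with 1 cluster of 15 or more cells in each library is that cluster. The models left out, the shared cluster and the geometric mean were chosen after seeing the data. Adding the 7 copies of chromosome 1 or keeping only columns of both tables left all 5 ratios within their interval. Gm13340 and Gm13341 of chromosome 2 were not added.

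Aged cells over the limit (7.02% of passing cells) were 12.8% of the whole table, 12.4% at a limit of 20%, 2.72% at 30% and 0% with the lowest young total as minimum. They were 0.0669% after thinning, which drops all cells under 2000 counts. Passing aged cells over the limit had a median total of 887 counts, so most of them were dropped there. At 2-fold, the mt- genes lower in aged Leydig-like cells went from 2 to 1, those higher and lower in spermatocyte-like cells from 3 to 1 and from 1 to 0, lower in round spermatid-like from 2 to 0 and in elongating from 1 to 0, and both in macrophage-like cells from 1 to 0. The nuclear list genes went at 2-fold in spermatocyte-like cells from 13 to 4 higher and from 3 to 1 lower, in round spermatid-like from 3 to 1 lower, in elongating from 8 to 0 higher, and in macrophage-like cells from 14 to 3 higher and 4 to 1 lower. With 10 or more counts, mt- genes were 1 higher in Leydig-like, 1 higher and 7 lower in round spermatid-like and 5 lower in macrophage-like cells, and list genes 1 higher in Leydig-like, 5 lower in spermatocyte-like, 2 higher in round spermatid-like, 17 higher and 5 lower in elongating and 13 lower in macrophage-like cells. The parts of the mt- counts stayed in 139 of 140 cases without cells over 25%, and 109 of 112 moved when only protein genes were counted. Depth limits genes with few counts, cells at 0 mt- counts and any reading of cells below the lowest young total.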
